A study of Mus musculus with 6 samples.

Results

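Negative feedback is a hallmark of canonical Wnt signalling. Here 10 genes of this feedback and of the pathway's transcriptional arm were followed in mouse embryos with a conditional knockout of the chromatin remodeller Brg1. They were the feedback inhibitors Nkd1, Nkd2, Notum, Axin2, Rnf43 and Znrf3, the transcription factors Lef1 and Tcf7, the transducer Ctnnb1 (beta-catenin) and the R-spondin receptor Lgr5. They were taken by gene name, from a list drawn up with earlier results of these data known. The array's own gene names gave 9 of the 10. Notum was found under the older array name 5730593N15Rik, which the RefSeq gene table lists as a synonym. The 10 genes had 19 probes, and 16 of these, covering all 10 genes, entered the test among 15023 genes in all. Each of the 16 was well above background on all 6 arrays. Of the 10, 3 were lower in Brg1d/d embryos (Nkd1, Nkd2 and Notum), 0 were higher, and 7 did not pass (limma, adjusted p at most 0.05). Over all genes tested 5.31% were lower and 5.26% higher. At an unadjusted p of at most 0.05, 4 of the 10 were lower and 1 higher, against 14.7% lower and 17.8% higher over all genes.

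Whole embryos were compared at embryonic day 8.5. Brg1d/d embryos are conditional knockouts of Brg1 (gene symbol Smarca4), the ATPase subunit of SWI/SNF remodelling complexes. Brg1fl/fl embryos carry the floxed gene, and the labels treat them as wild-type controls. For both genotypes the labels state that the dam received tamoxifen by intraperitoneal injection. Each genotype had 3 samples, which the design text calls biological, with 1 one-colour Agilent array per sample. The labels name neither the Cre driver nor the cells in which it acts, the day of injection or the number of embryos in a sample. Nothing in them says that the embryos of a genotype came from separate litters, so the p-values measure only the spread between these samples. With 3 arrays on each side, the number of arrays sets how finely any difference can be resolved.

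A level below is the log2 of a probe's background-subtracted signal minus the array's 75th percentile, so it compares arrays for 1 probe and not probes with each other. Differences are Brg1d/d minus Brg1fl/fl, with SE from limma and p-values adjusted over all 27840 probes tested at a threshold of 0.05. All 3 Smarca4 probes were lower in Brg1d/d embryos, with differences of -2.69 to -2.08 and adjusted p of 0.00544 to 0.0129. The 3 Brg1fl/fl arrays and Brg1d/d 2 were scanned on 1 day, and Brg1d/d 1 and Brg1d/d 3 on a day each. Those same arrays, Brg1d/d 1 and Brg1d/d 3, also stood apart in their brightest spike-in control, at 12934 and 6905 units against 208550 to 241121 on the other 4. The Brg1fl/fl arrays shared 1 slide and every Brg1d/d array had its own, so slide and genotype cannot be told apart. Brg1fl/fl 1 also stood apart from the other Brg1fl/fl arrays. The summed signal of 12 visceral endoderm and yolk sac markers, in units of the 75th percentile, was 335 to 388 on Brg1d/d arrays, against 93.1 on Brg1fl/fl 1 and 432 and 444 on Brg1fl/fl 2 and 3. Results are therefore given also for Brg1d/d 2 alone against the Brg1fl/fl arrays of its scan day, and without Brg1fl/fl 1.

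In canonical Wnt signalling a secreted Wnt protein binds Frizzled and Lrp receptors, the destruction complex built on Axin and Apc is held inactive, and beta-catenin accumulates and joins TCF/LEF factors on DNA. Many of the genes that this complex switches on encode inhibitors of the pathway, which is how the signal limits itself. In the mouse embryo at this stage the pathway is best known for its role in the primitive streak and tail bud, where it maintains the progenitors of the trunk and tail.

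Nkd1 and Nkd2, the mouse relatives of the fly gene naked cuticle, encode cytoplasmic proteins that bind Dishevelled and dampen Wnt signalling. Both fell in Brg1d/d embryos, 3.24-fold for Nkd1 and 3.78-fold for the brighter Nkd2 probe. The promoters of these genes are shown because the pair moved together, with that of Axin2, another feedback inhibitor, which did not pass. Each line gives the 250 bases before the RefSeq start (GRCm38.p6), 5′ to 3′ in the direction of transcription, with every CG dinucleotide in capitals. They lie at chr8:88527383-88527632 (Nkd1, plus strand), chr13:73847632-73847881 (Nkd2, minus strand) and chr11:108920099-108920348 (Axin2, plus strand).
Nkd1: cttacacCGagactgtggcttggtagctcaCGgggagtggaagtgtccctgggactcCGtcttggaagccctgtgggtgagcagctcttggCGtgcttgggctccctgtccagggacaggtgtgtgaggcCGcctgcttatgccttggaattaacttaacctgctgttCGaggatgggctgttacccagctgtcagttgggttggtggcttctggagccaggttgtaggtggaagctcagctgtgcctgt
Nkd2: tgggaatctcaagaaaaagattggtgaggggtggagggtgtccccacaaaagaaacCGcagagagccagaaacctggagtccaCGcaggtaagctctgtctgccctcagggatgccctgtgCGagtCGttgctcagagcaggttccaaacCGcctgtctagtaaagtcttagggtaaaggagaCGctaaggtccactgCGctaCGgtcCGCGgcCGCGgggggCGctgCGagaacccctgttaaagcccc
Axin2: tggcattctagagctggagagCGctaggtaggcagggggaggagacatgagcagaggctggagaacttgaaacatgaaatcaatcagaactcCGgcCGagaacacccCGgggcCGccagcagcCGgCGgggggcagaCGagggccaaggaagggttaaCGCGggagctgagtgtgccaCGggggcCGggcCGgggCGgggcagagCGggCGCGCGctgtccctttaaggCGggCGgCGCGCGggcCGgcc
The Nkd1 window holds 6 CG dinucleotides, the Nkd2 window 14 and the Axin2 window 24, against a median of 6 over 32851 promoter windows of the same length. The G and C content is 58.4% for both Nkd windows and 69.2% for Axin2, against a median of 52.4%. Letters of the TCF/LEF binding motif were searched on both strands in 4 forms: the form CTTTGAA, with the form CTTTGAT beside it, then the form CTTTGTA, and last the form CTTTGTT. They differ at their ends, so no 2 forms match at the same place on a strand. None of the 4 occurs in these 3 windows, and 14.8% of all windows hold at least 1. Sequence outside the windows was not searched, so motifs elsewhere at these genes are not covered. RefSeq's table had 13 windows for 7 of the 10 genes, and the 1 window with a match was an internal Lef1 start, at chr3:131156044-131156293. Notum, Znrf3 and Lgr5 had no window there, so none of their promoter sequence was searched.

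Nkd1 had levels of 1.31, 1.82 and 1.34 on Brg1d/d arrays 1, 2 and 3, against 3.65, 3.06 and 2.86 on Brg1fl/fl arrays 1, 2 and 3. The genotypes do not overlap: the highest Brg1d/d array lies about 1 log2 unit below the lowest Brg1fl/fl array. The means were 1.49 ± 0.29 in Brg1d/d and 3.19 ± 0.41 in Brg1fl/fl embryos (SD, n = 3 each), a difference of -1.70 ± 0.26 (95% interval -2.33 to -1.07, limma adjusted p = 0.0165). On the shared scan day the difference was -1.37, and without Brg1fl/fl 1 it was -1.47 (adjusted p = 0.0153). The probe is the only one for Nkd1 and maps to chr8:87184514-87184573 in the array's annotation (mouse build mm7).

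Nkd2 was read by 2 probes that lie close together, at chr13:70753431-70753490 and chr13:70753314-70753373 (mm7). The brighter had levels of -3.16, -3.15 and -3.55 on Brg1d/d arrays 1, 2 and 3, against -0.71, -1.51 and -1.89 on Brg1fl/fl arrays 1, 2 and 3. Again the genotypes do not overlap, and the Brg1d/d arrays lie closer to each other (SD 0.23) than the Brg1fl/fl arrays do (SD 0.60). The difference was -1.92 ± 0.32 (95% interval -2.69 to -1.15, limma adjusted p = 0.0208), -1.78 on the shared day and -1.59 without Brg1fl/fl 1 (adjusted p = 0.0123). The dimmer probe had levels of -5.84, -6.39 and -6.48 in Brg1d/d and of -3.41, -4.13 and -4.67 in Brg1fl/fl embryos, and it fell 4.49-fold (adjusted p = 0.0196). Its difference of -2.17 was -0.82 with normexp background correction (limma adjusted p = 0.0254). That setting also adds an offset of 50 units, beside signals of 11.6 to 28.4 in Brg1d/d and 37.6 to 94.2 in Brg1fl/fl embryos. Such an offset shrinks differences of dim probes, so the effect of background removal alone cannot be read from it. The direction of the fall stayed the same.

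Notum encodes a secreted carboxylesterase that removes the lipid by which Wnt proteins bind their receptors, and so acts outside the cell rather than on Dishevelled. Its brighter probe, at chr11:120763252-120763311 (mm7), had levels of -3.74, -3.96 and -3.95 on Brg1d/d arrays 1, 2 and 3, against -1.84, -2.75 and -2.54 on Brg1fl/fl arrays 1, 2 and 3. The Brg1d/d arrays are nearly level with one another, and every one of them is below every Brg1fl/fl array. Notum fell 2.83-fold, a difference of -1.50 ± 0.26 (95% interval -2.12 to -0.88, limma adjusted p = 0.0228). The same-day difference was -1.58, and without Brg1fl/fl 1 it was -1.23 (adjusted p = 0.0123). The other probe, at chr11:120770742-120770801, fell 2.68-fold (-1.42 ± 0.31, adjusted p = 0.0411). The array's annotation places these 2 probes in opposite orientations on the chromosome, and which of them matches the strand of the Notum transcript was not tested.

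The median difference of the 10 genes was -0.32, against 0.07 over all genes. On the shared day these medians were -0.41 for the 10 genes and 0.0 over all genes, and without Brg1fl/fl 1 they were -0.19 and 0.07. By the brightest probe, 5 of the 10 had every Brg1d/d array below every Brg1fl/fl array (Nkd1, Nkd2, Notum, Lef1 and Ctnnb1), 1 had every Brg1d/d array above (Lgr5), and 4 overlapped. Over all genes 19.2% did not overlap with Brg1d/d lower, and 22.8% did not overlap with Brg1d/d higher. Nkd1, Nkd2 and Notum kept their direction under all 16 alternative settings that changed the values or the fit, but none of the 3 passed with scan day as a block (adjusted p = 0.366 to 0.391) or with the spike-in split as a block (0.19 to 0.22), where the difference rests on Brg1d/d 2 alone. Nor did the brightest probe of any of them pass without Brg1d/d 1, without Brg1d/d 3 or without Brg1fl/fl 2 (limma adjusted p = 0.0547 to 0.0939). With no filter on dim probes both Notum probes lost their call (0.0507 and 0.0815). The dimmer Notum probe also lost it with the replicate block (0.0655), without Brg1d/d 2 (0.0535) and without Brg1fl/fl 3 (0.0726).

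**Figure D1:**
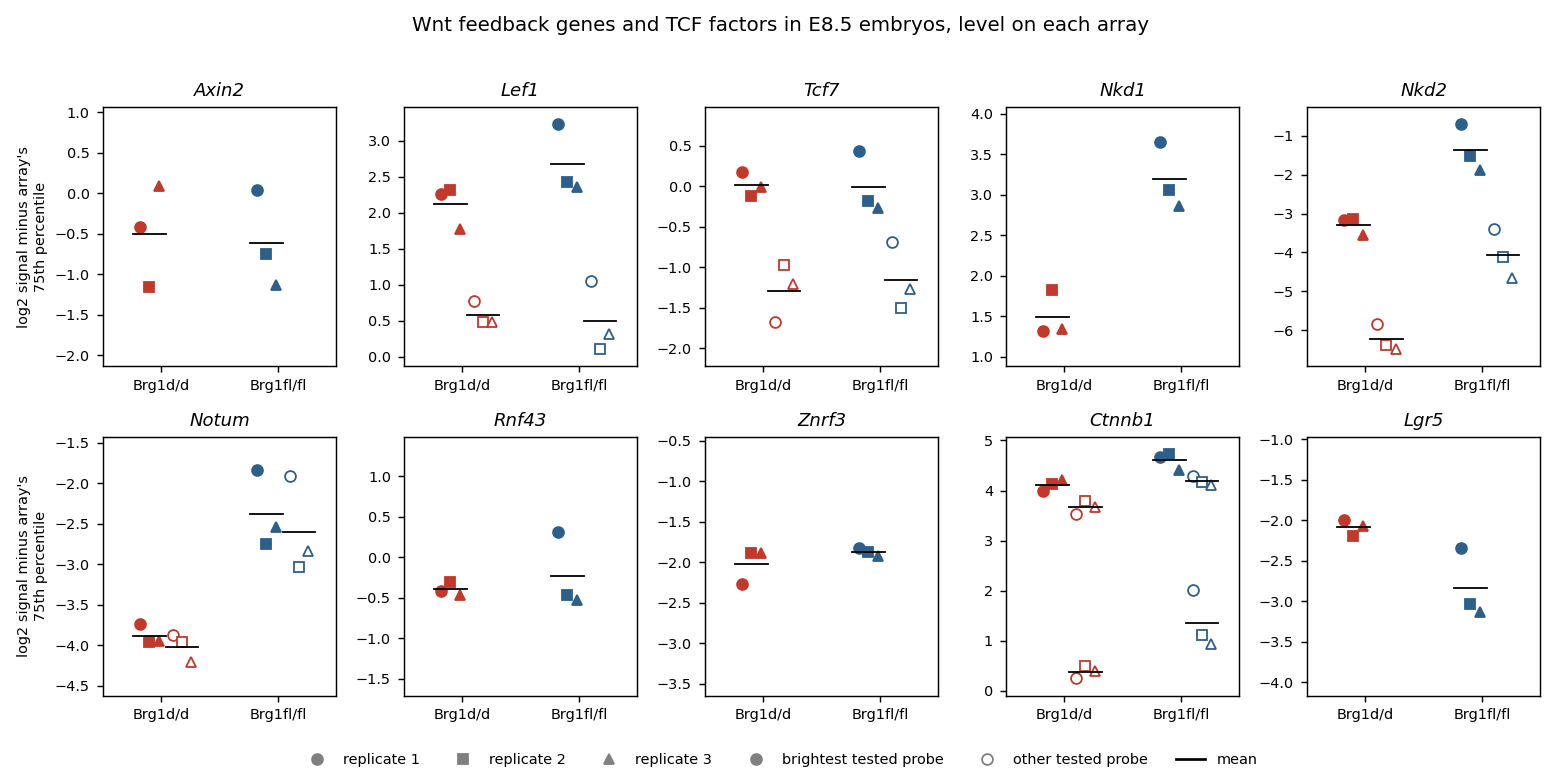
Level of each gene on each array (vertical axes, log2 units above the 75th percentile of the array, each panel with its own range), Brg1d/d left of Brg1fl/fl; filled symbols are the brightest tested probe, open symbols other tested probes, shapes the replicate number and bars the mean. The Nkd1, Nkd2 and Notum points of the genotypes are wholly apart, those of Axin2, Tcf7, Rnf43 and Znrf3 overlap, and Lgr5 lies higher in Brg1d/d.

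Axin2 is the scaffold of the destruction complex whose transcription Wnt signalling itself raises, and it is the pathway's most used reporter gene. Its probe, at chr11:109059707-109059766 (mm7), had levels of -0.42, -1.16 and 0.09 on Brg1d/d arrays 1, 2 and 3, against 0.04, -0.75 and -1.13 on Brg1fl/fl arrays 1, 2 and 3. The genotypes overlap almost fully, and arrays within a genotype are more than 1 log2 unit apart. The means were -0.50 ± 0.63 in Brg1d/d and -0.61 ± 0.60 in Brg1fl/fl embryos (SD, n = 3 each). The difference of 0.12 ± 0.42 did not pass (limma adjusted p = 0.865), and its interval of -0.88 to 1.11 includes falls and rises of about 2-fold. Its sign is not settled: it was -0.55 on the shared day and 0.44 without Brg1fl/fl 1.

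Rnf43 and Znrf3 are membrane ubiquitin ligases that clear Frizzled receptors from the cell surface, and R-spondins act by removing them. The Rnf43 probe at chr11:87805350-87805409 (mm7) had levels of -0.42, -0.30 and -0.46 in Brg1d/d and of 0.31, -0.47 and -0.53 in Brg1fl/fl embryos. Only Brg1fl/fl 1 stands out in that set. The difference was -0.16 ± 0.25 (interval -0.77 to 0.44, limma adjusted p = 0.679), and 0.11 without Brg1fl/fl 1. Znrf3 had the smallest range over the 6 arrays among the 10 genes, with levels of -2.27, -1.89 and -1.89 in Brg1d/d and of -1.83, -1.88 and -1.92 in Brg1fl/fl embryos. Its difference of -0.14 ± 0.17 did not pass (adjusted p = 0.592), and the interval of -0.54 to 0.26 excludes a fall as large as that of Nkd1. A second Rnf43 probe, on which no array was well above background, was not tested.

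**Figure D2:**
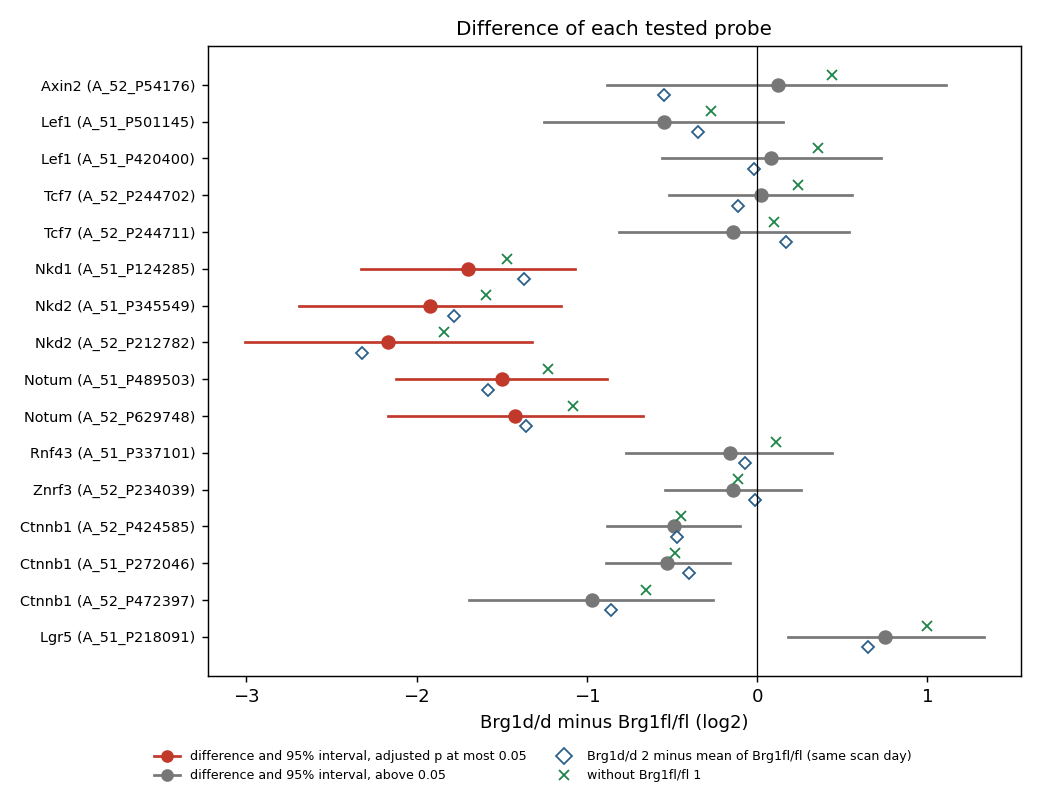
Difference of each tested probe (horizontal axis, Brg1d/d minus Brg1fl/fl, log2; line: 95% interval), with the value on the shared scan day (diamond) and without Brg1fl/fl 1 (cross). The 5 probes of Nkd1, Nkd2 and Notum lie between -2.17 and -1.42, and all their marks stay below 0.

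Lef1 and Tcf7 encode DNA-binding partners of beta-catenin, and both genes can themselves respond to Wnt signalling. The brightest Lef1 probe, at chr3:131060609-131060668 (mm7), had levels of 2.27, 2.32 and 1.77 in Brg1d/d and of 3.23, 2.43 and 2.36 in Brg1fl/fl embryos. The genotypes do not overlap, though Brg1d/d 2 and Brg1fl/fl 3 lie almost at the same level. The difference of -0.55 ± 0.29 did not pass (interval -1.25 to 0.15, limma adjusted p = 0.235), and it was -0.27 without Brg1fl/fl 1. A second probe, whose annotated span of chr3:131041424-131059585 crosses at least 1 intron, overlapped between the genotypes and gave 0.08 ± 0.27 (adjusted p = 0.847). The 2 Lef1 probes thus differ in sign, and neither passed. The remaining Lef1 probe was not tested, since no array was well above background there.

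Tcf7 had levels of 0.17, -0.12 and -0.01 in Brg1d/d and of 0.43, -0.18 and -0.27 in Brg1fl/fl embryos on its brighter probe, at chr11:52209369-52209428 (mm7). The Brg1d/d levels lie inside the range of the Brg1fl/fl levels. The difference was 0.02 ± 0.23 (interval -0.52 to 0.56, limma adjusted p = 0.959), and it turned to -0.07 with median scaling. The dimmer probe, at chr11:52210086-52210145, gave -0.14 ± 0.28 (adjusted p = 0.761).

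Ctnnb1 encodes beta-catenin, which is controlled mainly through the stability of the protein, so its RNA is no direct measure of pathway activity. The brightest of its 3 probes, at chr9:120658490-120658549 (mm7), had levels of 4.0, 4.14 and 4.21 in Brg1d/d and of 4.67, 4.73 and 4.41 in Brg1fl/fl embryos. A probe printed at 10 spots per array, at chr9:120657994-120658053, had 3.54, 3.80 and 3.67 in Brg1d/d and 4.29, 4.18 and 4.12 in Brg1fl/fl embryos. On all 3 probes every Brg1d/d array lies below every Brg1fl/fl array. The differences were -0.49 ± 0.16, -0.53 ± 0.15 and, for the probe at chr9:120654491-120654550, -0.97 ± 0.30, and none passed (limma adjusted p = 0.102, 0.0767 and 0.0868). The interval for the brightest probe was -0.88 to -0.10, which excludes 0 before adjustment. With an intensity trend and robust eBayes the brightest probe passed (adjusted p = 0.0467), as did the probe with 10 spots (0.0303), which also passed with normexp background correction (0.0465).

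Lgr5 encodes a receptor for R-spondins that marks Wnt-dependent stem cells of the adult intestine. Its probe at chr10:114958025-114958084 (mm7) had levels of -2.00, -2.20 and -2.07 in Brg1d/d and of -2.35, -3.04 and -3.14 in Brg1fl/fl embryos. This was the only gene of the 10 with all Brg1d/d arrays above all Brg1fl/fl arrays. The difference of 0.75 ± 0.24 (1.69-fold, interval 0.18 to 1.33) did not pass with all arrays (limma adjusted p = 0.0938). Without Brg1fl/fl 1 it was 1.0 and passed (adjusted p = 0.0165), and on the shared day it was 0.65. A second Lgr5 probe was well above background only on Brg1fl/fl 1 and was not tested.

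Within the Brg1fl/fl embryos the 10 genes differed between arrays in a shared direction. All 10 were higher on Brg1fl/fl 1 than in the mean of Brg1fl/fl 2 and 3, by a median of 0.77, against a median of 0.07 over all genes, of which 56.9% were higher. Nkd2 and Axin2 were each 0.99 higher there, Lef1 0.84 higher and Rnf43 0.81 higher, while Znrf3 was 0.07 higher. Markers of several embryonic tissues were likewise all higher on Brg1fl/fl 1: the 10 of presomitic mesoderm and tail bud by a median of 0.88, the 8 of neural plate and tube by 0.85, the 6 of somites by 1.41 and the 8 of heart by 0.5. The 12 markers of visceral endoderm and yolk sac and the 9 of primitive erythroid cells were all lower there, with median log2 differences of -2.96 and -2.99. Higher levels on that array were thus also seen in genes outside the Wnt pathway. The share of embryonic and extraembryonic tissue in each sample was not measured, and its part in these differences was not tested. Leaving Brg1fl/fl 1 out did not end the calls for Nkd1, Nkd2 and Notum.

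**Figure D3:**
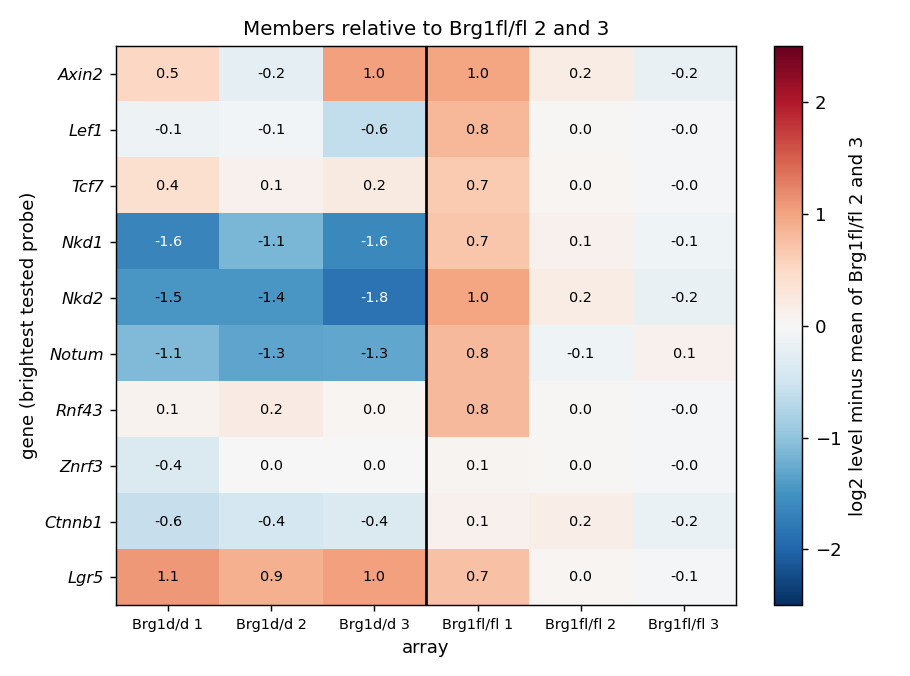
Log2 level of each gene's brightest tested probe on each array (columns, Brg1d/d left of Brg1fl/fl) minus the mean of Brg1fl/fl 2 and 3, rounded to 1 decimal; blue is lower and red higher. Nkd1, Nkd2 and Notum are blue on all 3 Brg1d/d arrays, and the Brg1fl/fl 1 column is red or near white for every gene.

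Around these genes, 6 further lists of the pathway held 102 genes, of which 99 were tested, with 7 higher and 10 lower in Brg1d/d embryos. The shares over all genes were 5.26% higher and 5.31% lower, and no list was tested against them. Of 18 Wnt ligands 2 were higher and 2 lower, with a median difference of -0.41. Wnt3a, the ligand of the tail bud, had levels of -1.19, -1.11 and -1.33 in Brg1d/d and of 1.04, 0.02 and 0.43 in Brg1fl/fl embryos, and it fell 3.27-fold (limma adjusted p = 0.0181). Wnt2, which is expressed in the heart field and the allantois, fell 3.03-fold (adjusted p = 0.0105). Wnt8a, a ligand of the primitive streak, was on the other side: its levels were -0.73, -0.93 and -0.78 in Brg1d/d and -2.20, -4.17 and -3.32 in Brg1fl/fl embryos, a 5.33-fold rise (adjusted p = 0.0306). Wnt9b rose 2.76-fold (adjusted p = 0.026). The Wnt ligands that passed thus include falls and rises of several fold.

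Of 20 receptors and R-spondins, 1 rose and 2 fell, with a median of -0.27. The receptor Fzd5 fell 3.09-fold (limma adjusted p = 0.0324) and the R-spondin gene Rspo1 3.02-fold (adjusted p = 0.0393), while the co-receptor Lrp6 rose 2.02-fold (adjusted p = 0.0344). On the shared day Fzd5 was -0.94 against -1.63 with all arrays, Rspo1 -1.53 against -1.60 and Lrp6 1.36 against 1.02. None of the 17 transducers and components of the destruction complex passed limma's adjusted threshold in either direction, with a median of 0.12, and at an unadjusted p of at most 0.05 there were 1 higher and 1 lower. Of 12 nuclear partners only the corepressor Tle2 passed, 3.17-fold higher (adjusted p = 0.0492).

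Secreted and membrane antagonists hold back Wnt proteins or their receptors. Those on the array moved both ways: of 16 tested, 3 rose and 3 fell, with a median of 0.17. Wif1, a secreted protein that binds Wnts, had levels of -2.75, -2.82 and -2.67 in Brg1d/d and of -4.47, -5.01 and -5.18 in Brg1fl/fl embryos, a 4.40-fold rise (limma adjusted p = 0.00497). Frzb, a secreted relative of Frizzled receptors, rose 3.33-fold (adjusted p = 0.0128) and Dkk1, a Lrp-binding inhibitor, 2.27-fold (adjusted p = 0.0137). Those that fell were Sostdc1, 8.16-fold (adjusted p = 0.0361), Dkk3, 3.05-fold (adjusted p = 0.00472), and Apcdd1, 2.41-fold (adjusted p = 0.0316). Sostdc1 was uneven within Brg1fl/fl, at -2.01, -2.10 and -4.37, against -5.97, -6.03 and -5.56 in Brg1d/d.

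Of 16 other genes described as Wnt targets, 3 fell and 0 rose, with a median of -0.39. The 3 are transcription factors and a Notch ligand of the tail bud and presomitic mesoderm. Tbx6 had levels of -0.94, -0.62 and -1.10 in Brg1d/d and of 1.88, 0.81 and 1.54 in Brg1fl/fl embryos, and it fell 4.91-fold (limma adjusted p = 0.0107). Cdx4 fell 3.43-fold (adjusted p = 0.0423) and Dll1 3.19-fold (adjusted p = 0.0339). Without Brg1fl/fl 1 the medians were -0.17 for the ligands, -0.12 for the receptors, 0.21 for the transducers, 0.14 for the nuclear partners, 0.36 for the antagonists and -0.07 for these targets. The number of passing genes in the 6 lists, 17 with all arrays, was 2 without Brg1d/d 1, 4 without Brg1d/d 3 and 4 without Brg1fl/fl 2, and 0 with scan day as a block.

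**Figure D4:**
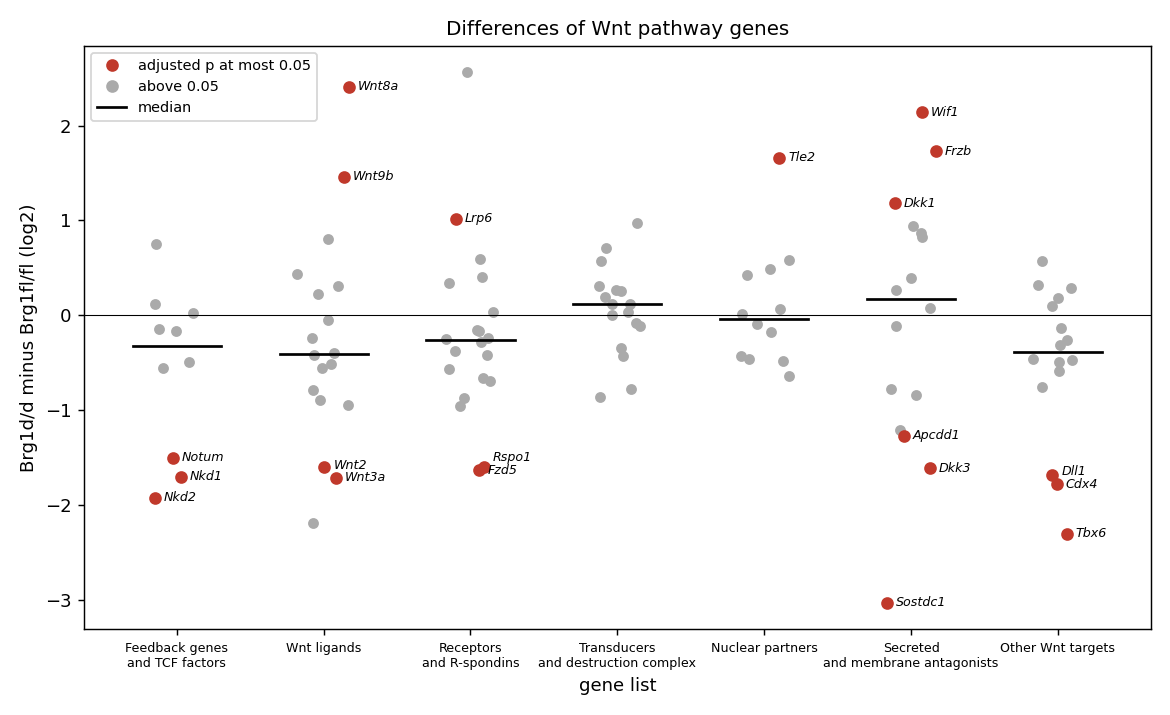
Difference of each tested gene (vertical axis, Brg1d/d minus Brg1fl/fl, log2, brightest probe) in the 10 genes at the left and in the 6 further Wnt lists; red points passed and are named, bars are list medians. Passing genes lie on both sides of 0 among ligands, receptors and antagonists, and below 0 among the feedback genes and the other targets.

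In RNA of whole embryos, fewer cells of a type and less RNA per cell cannot be told apart. The presomitic mesoderm and tail bud list, which shares 7 of its 10 genes with the Wnt lists, had 5 genes lower (Tbx6, Wnt3a, Cdx4, Dll1 and Lfng) and 0 higher. The shares over all genes were 5.31% lower and 5.26% higher, and the list was not tested against them. Its median level was -1.22 to -1.01 on Brg1d/d arrays, against -0.36 to 0.73 on Brg1fl/fl arrays, and its summed signal in units of the 75th percentile was 18.8 to 24.4 on Brg1d/d arrays and 18.3 to 34.4 on Brg1fl/fl arrays. That sum is weighted to the brightest gene of the list, Cdx2, at levels of 3.76 to 4.25 in Brg1d/d and 3.41 to 4.20 in Brg1fl/fl embryos. All 10 were well above background on at least some arrays. Other tail bud genes did not pass: T, the marker of the primitive streak and notochord, had a difference of -0.26 (limma adjusted p = 0.58), Fgf8 one of -0.27 (0.443) and Cdx2 one of 0.32 (0.421). The part of a change in this tissue in the values of Nkd1, Nkd2 and Notum was not tested.

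Markers of several other tissues also differed between the genotypes, and those listed for the maternal decidua differed in both directions. Over all genes 5.31% were lower and 5.26% higher, and no marker list was tested against these shares. Of 8 heart markers 6 were lower and 0 higher, with a summed signal of 12.1 to 17.7 in Brg1d/d and of 139 to 201 in Brg1fl/fl embryos. Of 8 neural markers 4 were lower and 1 higher, at 2.88 to 3.28 in Brg1d/d and 4.71 to 11.1 in Brg1fl/fl embryos. Of 5 somite markers tested 1 was lower, at 1.92 to 2.35 in Brg1d/d and 3.37 to 10.9 in Brg1fl/fl embryos. Myf5, also of that list, was well above background on 0 arrays. The brightest neural and somite markers, Sox2 and Tcf15, weigh most in these sums and did not pass (limma adjusted p = 0.238 and 0.204). Of 9 trophoblast markers 6 were higher and 0 lower, at 276 to 297 in Brg1d/d and 151 to 234 in Brg1fl/fl embryos. That sum is weighted to Krt18 and Krt8, the brightest of the list, which did not pass (limma adjusted p = 0.138 and 0.129). Of 9 primitive erythroid markers 2 were lower (Hemgn and Ermap). Their list's summed signal was 59.9 to 73.6 in Brg1d/d and 69.7 to 276 in Brg1fl/fl embryos, the lowest of these being Brg1fl/fl 1. That sum is weighted to Hbb-bh1, the brightest of the list, which did not pass (limma adjusted p = 0.0973). Of 7 decidua markers 3 were lower (Des, Lum and Col6a3) and 1 higher (Prl8a2, a difference of 4.47, limma adjusted p = 0.0458). Prl8a2 was well above background on only 4 of the 6 arrays. Its levels were -1.18, -1.59 and -2.52 in Brg1d/d and -7.96, -6.92 and -3.83 in Brg1fl/fl embryos, so the size of its rise is uncertain. The summed signal of the decidua list was 2.88 to 3.36 in Brg1d/d and 3.35 to 13.5 in Brg1fl/fl embryos. Lum was the brightest of the list on Brg1fl/fl 2 and 3, at 3.25 and 2.51, so the sum does not follow Prl8a2. None of the 12 visceral endoderm and yolk sac markers passed in limma, and 0 had an unadjusted p of at most 0.05. Over all genes those unadjusted shares were 14.7% lower and 17.8% higher. All 12 were lower on Brg1fl/fl 1 than in the mean of Brg1fl/fl 2 and 3, with a median log2 difference of -2.96. That widens the spread used by the test, so the absence of calls does not show equal levels. Against Brg1fl/fl 2 and 3 alone, Apoa2 was lower in Brg1d/d (1.90 to 2.06 against 4.14 and 4.09) and Fgb higher (4.85 to 4.93 against 4.47 and 4.30). The part of these tissues, embryonic, extraembryonic and maternal, in the Wnt values was not tested.

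Since Axin2 varied more between arrays than between genotypes, the genes whose levels followed it most closely were read out over the 6 arrays. Of the 14197 genes that every array measured well above background, the highest Pearson correlations were those of Zc3h7b (r = 0.988), Nfkb1 (r = 0.986) and Zfp334 (r = 0.979). All 3 are the extremes of many genes over 6 arrays that share scan days and slides, so the values are a description. Their own differences between genotypes were 0.08, 0.02 and 0.0, and none passed (limma adjusted p = 0.822, 0.959 and 0.996).

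**Figure D5:**
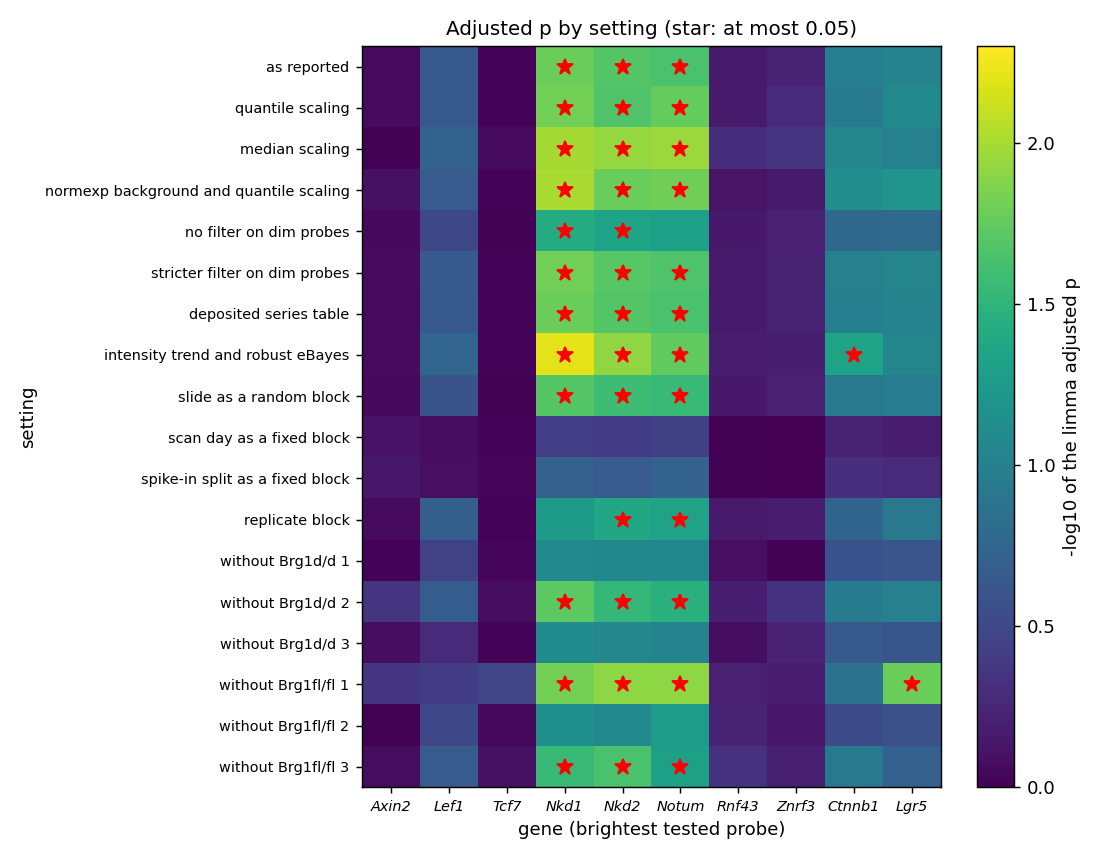
The -log10 of the limma adjusted p (colour) for the brightest tested probe of each gene (columns) under each setting (lines of the map), with a star where it is at most 0.05. Stars fall on Nkd1, Nkd2 and Notum under most settings but not with scan day or the spike-in split as a block, and on Ctnnb1 and Lgr5 under 1 setting each.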

How the data were processed

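RNA of whole embryos at day 8.5, 3 samples of each genotype, was labelled with Cy3 from 250 ng, per the labels' protocols. The authors' scanner files hold intensity values from Agilent Feature Extraction 9.5, per the submitters' processing notes, with background subtracted, and deposited flags (unit other, 0 or 1) that mark spots as saturated, as outliers or as clearly above background. The series table equalled the processed intensity at 100% of spots and was an alternative. The 75th percentile of the processed signal was 1629.53, 971.614 and 1583.19 units on Brg1d/d arrays, against 1000.49, 1011 and 959.448 on Brg1fl/fl arrays.

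Control and outlier spots (53 to 83 of 43379 per array) were left out, spots of a probe averaged, log2 taken and each array's 75th percentile subtracted. A probe entered the test where either genotype had it well above background on each of its 3 arrays, and probes with a missing value on any array were dropped. limma 3.58.1 in R 4.3.3 (lmFit, eBayes, two-sided) compared the genotypes, with Benjamini-Hochberg adjustment over 27840 probes. A gene was counted through its brightest kept probe. Of 41174 probes, 32719 were named through the RefSeq gene table (GRCm38.p6, names only), and the array's annotation gave the coordinates of probes (mm7). The fit was tested on simulated data. Files were read with Python 3.11.15.

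The genes followed, the lists and the rule for named genes were chosen with earlier results of these data known. The rule took every probe of the 10 genes, from each further Wnt list up to 3 passing genes per direction, taken by size of difference, and the 3 genes closest to Axin2. Alternatives were quantile and median scaling, normexp (offset 50), the filter on dim probes left off or made stricter, the series table, a trend with robust eBayes, slide, scan day, spike-in split and replicate number as blocks, and each array left out.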

Additional observations from a re-analysis of the deposited data

How the results depend on the processing

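The deposited series table holds the same values and gave the same calls, so it is left out of the following tally. By the brightest probe, Nkd1 passed under 10 of 16 alternatives, Nkd2 under 11 and Notum under 10. All kept the same direction, with differences of -1.86 to -1.37, -2.18 to -1.56 and -1.69 to -1.03. The number of genes that fell, 3 with all arrays, was 0 with scan day and 0 with the spike-in split as a block, 2 with no filter on dim probes (Nkd1 and Nkd2), 4 with the intensity trend (Ctnnb1 being the addition), and 0 to 3 with each array left out, being 0 without Brg1d/d 1, Brg1d/d 3 or Brg1fl/fl 2. The number that rose was 0 to 1, the 1 being Lgr5 without Brg1fl/fl 1. Over all genes, 1587 passed as reported, 693 with no filter on dim probes, 122 with the spike-in split, 305 to 2914 with each array left out, and 0 by limma with scan day as a block, where 1796 had an unadjusted p under 0.05 and the Brg1d/d side rests on 1 array. In the 6 further Wnt lists 17 genes passed as reported, 7 with no filter, 0 with scan day, 0 with the spike-in split and 2 to 18 with each array left out. Same-numbered arrays correlated at -0.127, 0.081 and 0.091 in their deviations from the group means. Differently numbered arrays correlated at -0.19 to 0.109. With 3 arrays on each side, these values cannot decide whether the numbers pair the samples. With the replicate block 564 genes passed over all, 7 in the Wnt lists, and Nkd2 and Notum but not Nkd1 among the genes that fell. Among the 10 genes, signs turned only for probes that did not pass. With scan day or the spike-in split as a block, Axin2 was -0.55, the brighter Tcf7 probe -0.11, the dimmer Tcf7 probe 0.17 and the second Lef1 probe -0.02. The brighter Tcf7 probe was -0.07 with median scaling. With each array left out, Axin2 ranged over -0.18 to 0.45, the second Lef1 probe over -0.11 to 0.36, the dimmer Tcf7 probe over -0.31 to 0.10, the brighter Tcf7 probe over -0.11 to 0.24 and Rnf43 over -0.31 to 0.11. The median of all genes was 0.07 as reported, -0.02 with median scaling and 0.16 with no filter. Signal over background limits the dimmer Nkd2 probe, at 11.6 to 28.4 units in Brg1d/d and 37.6 to 94.2 in Brg1fl/fl embryos. Fits without an array have fewer samples, and other causes were not tested.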
